A study of Mus musculus with 36 samples.

Results

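Lung monocytes of chimeric mice that had inhaled concentrated fine particulate matter (PM2.5) for 32 weeks were compared with monocytes of mice that breathed filtered air (FA) for the same time. The comparison used 12 of the 36 RNA-seq libraries of the study, 6 of PM2.5 and 6 of FA, chosen by their labels (cell type, exposure and 32 weeks). Of the 27562 genes with values, 12822 averaged 1 FPKM or more over these 12 libraries and were tested. FPKM are fragment counts scaled for transcript length and for the mapped fragments of the library, so the number of reads behind each value is unknown (the methods give only 1 nominal depth).

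The mice were male C57BL/6J hosts (C57BL/6 in the labels) that carry the CD45.2 form of the leukocyte antigen. Their lungs were shielded during irradiation, busulfan was given to clear their remaining marrow, and they received marrow of CD45.1 donors of the B6.SJL strain, so host and donor leukocytes can be told apart by antibody. Each exposure had 2 groups of 3 libraries. Mono1 was read as CD45.1 monocytes, which come from donor marrow, and Mono2 as CD45.2 monocytes, which come from the host. The labels give only the digits 1 and 2. The sort gate for lung monocytes was Ly6G-, MHC II-, CD64 low and CD11b high. Controls and exposed mice shared the irradiation, busulfan, transplant and chamber housing. Per the methods, 3 mice of each exposure were taken for sequencing, so Mono1 and Mono2 libraries of one exposure may be from the same mice. The labels do not say this, and it is taken up beside the first test.

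Blood monocytes of the mouse exist in a classical form, which carries Ly6C and the receptor Ccr2 and enters inflamed tissue, and a non-classical form, which has little Ly6C, depends on the transcription factor Nr4a1 and patrols the vessel wall. The gate did not separate these forms. Inhaled particles bring polycyclic hydrocarbons, metals and microbial products to the lung. The first are sensed through the aryl hydrocarbon receptor, oxidants through NRF2, and microbial products through toll-like receptors, and each of these routes has known target genes.

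The 12 libraries were of one kind in most respects. They listed between 11659 and 12759 genes at 1 FPKM or more, and their 10 highest genes held between 27.6% and 33.3% of all FPKM. Classical markers such as Ly6c2 (127 to 376 FPKM) and Ccr2 (159 to 938 FPKM) were high in every library, as was Nr4a1 (492 to 1151 FPKM). Ly6g, which marks neutrophils and whose protein the gate excluded, was listed at 0 in all 12. The 12 neutrophil markers, of which 4 passed the filter, summed to between 25.4 and 69.9 FPKM. The 8 T cell markers summed to between 0.786 and 39.4 FPKM, and the 8 NK cell markers to between 0 and 2.80 FPKM. Mono2 libraries held transcripts of lung macrophages that Mono1 libraries had at low levels. Cd163, a haemoglobin scavenger receptor of interstitial macrophages, stood between 29.3 and 130 FPKM in the 6 Mono2 libraries and between 2.60 and 5.45 in the 6 Mono1 libraries. The complement gene C1qa reached 1206 FPKM in Mono2 FA replicate 0 and 1031 in Mono2 PM2.5 replicate 1, and Ear1, of alveolar macrophages, was highest in the latter at 80.1. These 2 libraries stand apart, and values without them are given beside results that they move by more than 1.5 times.

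PM2.5 was compared with FA by limma on log2(FPKM + 1) with origin (Mono1 or Mono2) as a covariate. No gene passed an adjusted p of 0.05 (0% of the genes tested), and the smallest adjusted p of limma was 0.422. At an unadjusted p under 0.05 there were 1104 genes, where 641.1 would be 5% of the genes tested. Of these 747 were higher with PM2.5 (5.83% of the genes tested) and 357 were lower (2.78%). The share that was higher depended on the scaling: it was 67.7% with FPKM as deposited, 51.5% after quantile normalization and 49.6% after scaling each library to the same upper quartile. Over all genes the median log2 fold change was 0.03, and 55.3% of the genes were above 0. Without the 2 libraries rich in macrophage transcripts this median was 0.0028. All 6 PM2.5 libraries were above all 6 FA libraries for 42 genes (0.328%) and below them for 7 (0.0546%). As no gene passed the adjusted threshold, genes are described below by their values and not as changed.

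The 12 libraries may stand for 6 mice. Across 7456 genes (an average of 5 FPKM or more, no library at 0), same-numbered Mono1 and Mono2 libraries of the PM2.5 groups deviated from their group means together, with a correlation over genes of 0.54, 0.43 and 0.56 for replicates 0, 1 and 2. In the FA groups the values were 0.33, -0.16 and 0.57. When same-numbered libraries were treated as 1 mouse with an estimated correlation (0.403), the unadjusted p of 510 genes was under 0.05 and the smallest adjusted p was 1.0. The means of same-numbered libraries, 3 against 3, gave 572 such genes. That fit called 7 genes, all of them small nuclear or nucleolar RNAs. Exact permutation p-values below are two-sided, over the 400 ways to relabel exposure within origin, and cannot go under 0.005. A gene whose exposures do not overlap has this value by construction. Over the 6 means of same-numbered libraries the smallest exact p is 0.1. In simulated data for this comparison, limma called 24 of 50 genes changed by 1 on the log2 scale and 45 of 50 changed by 2. The simulation had 12 independent libraries with normally distributed noise. Its changed genes were drawn from those above about 5 FPKM, and 50 each changed by 0.5 and by 4 were in the same fit. Lower genes and fewer changed genes were not simulated.

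Markers of non-classical monocytes stood higher in PM2.5 libraries. Of the 12 markers on the list all were tested, 11 were above 0 in log2 fold change and these 11 each had an unadjusted p under 0.05, which 5.83% of all genes had in that direction. Their median log2 fold change was 1.22, where that of all genes was 0.03, and it was 1.39 within Mono1 and 1.15 within Mono2. With same-numbered libraries as 1 mouse 8 of the 12 had an unadjusted p under 0.05. The count was 10 without the 2 libraries rich in macrophage transcripts. In sorted bulk samples more cells of the non-classical form and more RNA of these genes per cell cannot be told apart.

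The surface proteins of this form had some of the highest differences. Spn, the sialoglycoprotein CD43 (chromosome 7, 127132232 to 127137823), was at 19.7 FPKM in its lowest FA library, 37.0 at the median and 106 at the highest, against 78.5, 146 and 197 with PM2.5. Its log2 fold change was 1.64 (SE 0.375, limma adjusted p = 0.422). Cx3cr1, the receptor of fractalkine, ran from 13.6 to 132 FPKM (median 42.5) with FA and from 91.1 to 248 (median 134) with PM2.5, a log2 fold change of 1.69 (SE 0.531). For both genes the highest FA libraries lay within the PM2.5 range. Cd300e, an activating receptor, was between 1.05 and 28.7 FPKM with FA and between 11.1 and 53.5 with PM2.5. Treml4, a receptor of the TREM family, was between 9.61 and 59.6 with FA and between 33.3 and 119 with PM2.5. The exposures overlapped for these genes too, and their log2 fold changes were 1.86 and 1.19.

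Enzymes and secreted proteins of the list stood the same way. Ace, angiotensin-converting enzyme, had a median of 43.3 FPKM with FA and 121 with PM2.5, and Pglyrp1, a peptidoglycan recognition protein, 11.3 and 52.4. Eno3, the muscle enolase, had the highest fold of the list, at a median of 1.0 FPKM with FA and 10.4 with PM2.5 and a log2 fold change of 1.98 (SE 0.454). Cd36, a fatty acid and lipoprotein receptor, was between 25.6 and 103 FPKM with FA and between 96.1 and 121 with PM2.5. Its log2 fold change was 1.51 within Mono1 and 0.72 within Mono2, a difference between the origins that was not called by limma (adjusted p = 1.0). The smallest differences were those of Nr4a1 (log2 fold change 0.43), Cd300ld (0.34) and the integrin chain Itgal (0.75). Cebpb, a transcription factor that both forms express, had a log2 fold change of -0.24 (SE 0.397).

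**Figure D1:**
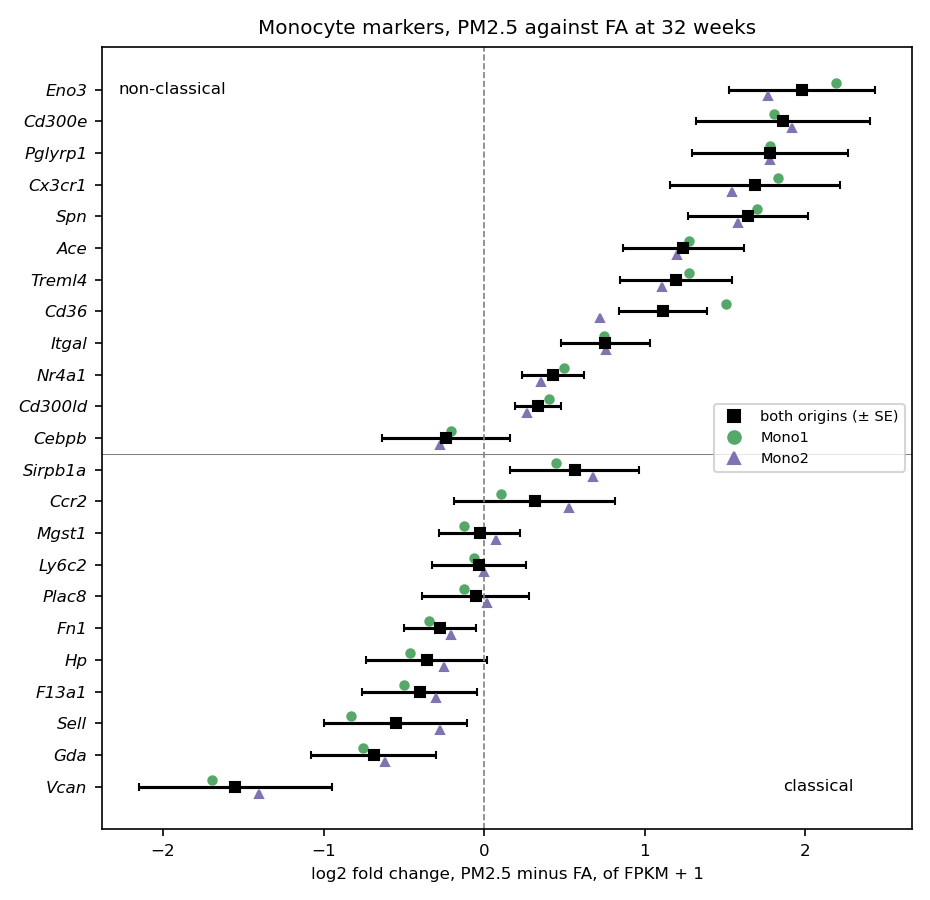
Log2 fold changes, PM2.5 minus FA on the log2(FPKM + 1) scale, of 12 non-classical (upper) and 11 classical (lower) monocyte markers. Squares are the fit over 12 libraries with bars of ± 1 SE, circles are Mono1 and triangles Mono2, and 11 of the 12 non-classical markers are above 0 while 9 of the 11 classical markers are below it.

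Most classical markers stood a little lower with PM2.5. Of 11 tested 2 were above 0, none had an unadjusted p under 0.05 in the higher direction and 1 had it in the lower (2.78% of all genes). The list's median log2 fold change was -0.27, which was -0.14 without Mono1 FA replicate 1, -0.13 without Mono2 PM2.5 replicate 1 and -0.098 without the 2 libraries rich in macrophage transcripts. This gene was Vcan, a matrix proteoglycan of classical monocytes. Its FPKM ran from 28.5 to 321 (median 152) with FA and from 21 to 63.3 (median 36.6) with PM2.5, with a log2 fold change of -1.55 (SE 0.601, limma adjusted p = 0.544). The 2 genes that define the form had closer medians in the 2 exposures. Ly6c2 had a median of 234 FPKM with FA and 236 with PM2.5 (log2 fold change -0.03, SE 0.294), and its sign turned when any of 5 libraries was left out. Ccr2 had medians of 256 and 330 (log2 fold change 0.32, SE 0.501), with a value of -0.034 without Mono2 PM2.5 replicate 2.

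The spread among FA libraries set how far these markers separated. The median level of the 12 non-classical markers, relative to each gene's mean over the 12 libraries, was 0.42 in Mono1 FA replicate 0 and 0.16 in Mono2 FA replicate 1 on the log2 scale. In the other 4 FA libraries it was between -0.68 and -1.81. PM2.5 libraries had between 0.46 and 1.07, other than Mono2 PM2.5 replicate 1 at -0.28. That library also had the highest level of alveolar macrophage markers (2.06). Leaving out Mono1 FA replicate 0 raised the list's median log2 fold change to 1.39, and over the alternatives run for the pooled comparison it lay between 1.06 and 1.48.

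**Figure D2:**
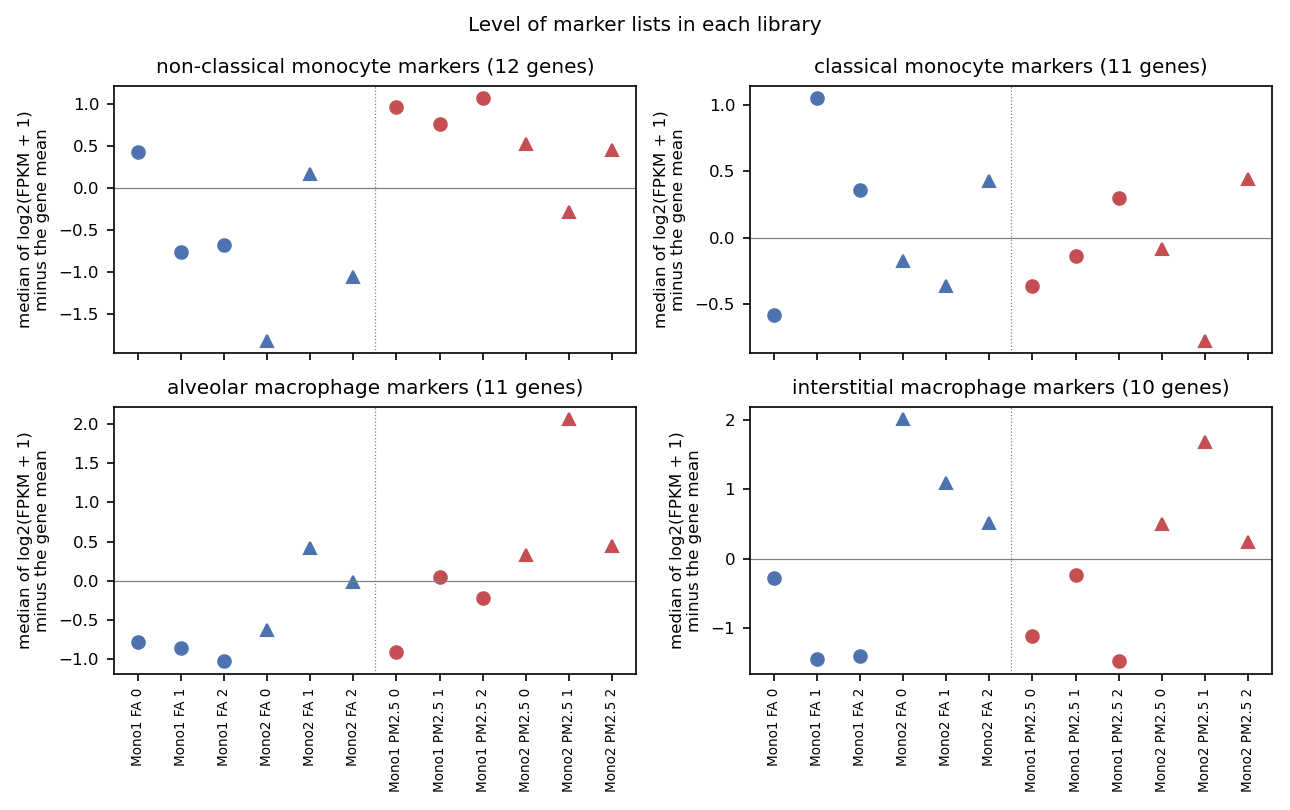
Level of 4 marker lists in each of the 12 libraries, as the median over tested members of log2(FPKM + 1) minus the gene's mean over the 12 libraries. Blue is FA, red PM2.5, circles Mono1 and triangles Mono2. For the non-classical markers 5 of the 6 PM2.5 libraries lie above 0.4 and 4 of the 6 FA libraries below -0.6, and the macrophage lists are highest in Mono2 libraries.

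Among the genes named for the smallest p, Ear2 had the highest log2 fold change that separated the exposures without overlap. Ear2 (chromosome 14, 44102654 to 44103534), a secreted ribonuclease of the eosinophil-associated family, was between 42.9 and 133 FPKM with FA (median 62.1) and between 168 and 395 with PM2.5 (median 223). No FA library reached the lowest PM2.5 library. Its log2 fold change was 1.74 (SE 0.341, limma adjusted p = 0.422, exact permutation p = 0.005, higher in 6 of 6 libraries), with 1.79 in Mono1, 1.70 in Mono2 and 1.59 without the 2 libraries rich in macrophage transcripts. The gene has close relatives in the genome, and how the authors divided reads between them is not stated. It is also on the list of alveolar macrophage markers, of which all 11 tested were above 0 (9 after quantile normalization). Of these 5 had an unadjusted p under 0.05 (5.83% of all genes in that direction). The summed level of the 13 members with values, Ear2 included, was 67.3 to 226 FPKM with FA and 226 to 494 with PM2.5. Their median log2 fold change was 0.45, and 0.14 without Mono2 PM2.5 replicate 1. The other 4 of these 5 were Pparg, Car4, Itgax and Fabp4. Siglecf, not among these 5, stayed between 0.282 and 8.99 FPKM over the 12 libraries, and Marco between 0 and 4.86, below the filter. The part of alveolar macrophages in the values of Ear2 was not tested.

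Other genes named for higher values had several roles. By the rule for named genes these had a mean of at least 5 FPKM, no library at 0 and the same sign in both origins. Cdc42ep2, an effector of the GTPase Cdc42, was between 14.8 and 25.5 FPKM with FA and between 30.7 and 48.5 with PM2.5, with a log2 fold change of 0.70 (SE 0.135). Cnr2, the cannabinoid receptor of leukocytes, was between 8.08 and 11.9 FPKM with FA and between 12.8 and 16.6 with PM2.5. Prr5l, a partner of the mTORC2 kinase, was between 4.57 and 11.1 with FA and between 11.3 and 18.1 with PM2.5. The exposures did not overlap for these 3 genes, nor for the phospholipase Ddhd1, the lysozyme gene Lyz1 or Gbp2. The exact permutation p of 0.005 of each follows from this lack of overlap and is no separate support. Over the 6 means of same-numbered libraries the exact permutation p of each was 0.1. Lyz1 (log2 fold change 1.01) is a near copy of Lyz2, and reads may have been shared between them.

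Bhlhe40, a transcriptional repressor, was between 43.5 and 108 FPKM with FA and between 104 and 155 with PM2.5, so that 1 FA library reached into the PM2.5 range. AA467197, the host transcript of miR-147, was at a median of 3.43 FPKM with FA and 9.74 with PM2.5 (log2 fold change 1.10), and Cyp2ab1, a cytochrome P450, at 7.70 and 14.7. Outside the rule, and chosen after the values were seen, S1pr5, the sphingosine 1-phosphate receptor of non-classical monocytes and NK cells, had one of the largest differences among well-measured genes. It was listed at 1.18 to 23.1 FPKM with FA (median 3.84) and at 20.6 to 49.9 with PM2.5 (median 26.3), a log2 fold change of 2.35 (SE 0.526). The prostacyclin receptor Ptgir (1.49), the lipase inhibitor G0s2 (1.39), the lysophosphatidic acid receptor Lpar5 (1.16) and the endothelial-type receptor Heg1 (1.0), chosen in the same way, also had positive log2 fold changes. The lowest unadjusted p of all genes was that of Tmc8, a membrane protein of the transmembrane channel-like family, at 2.13 to 3.16 FPKM with FA and 4.23 to 6.15 with PM2.5 (log2 fold change 0.66).

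**Figure D3:**
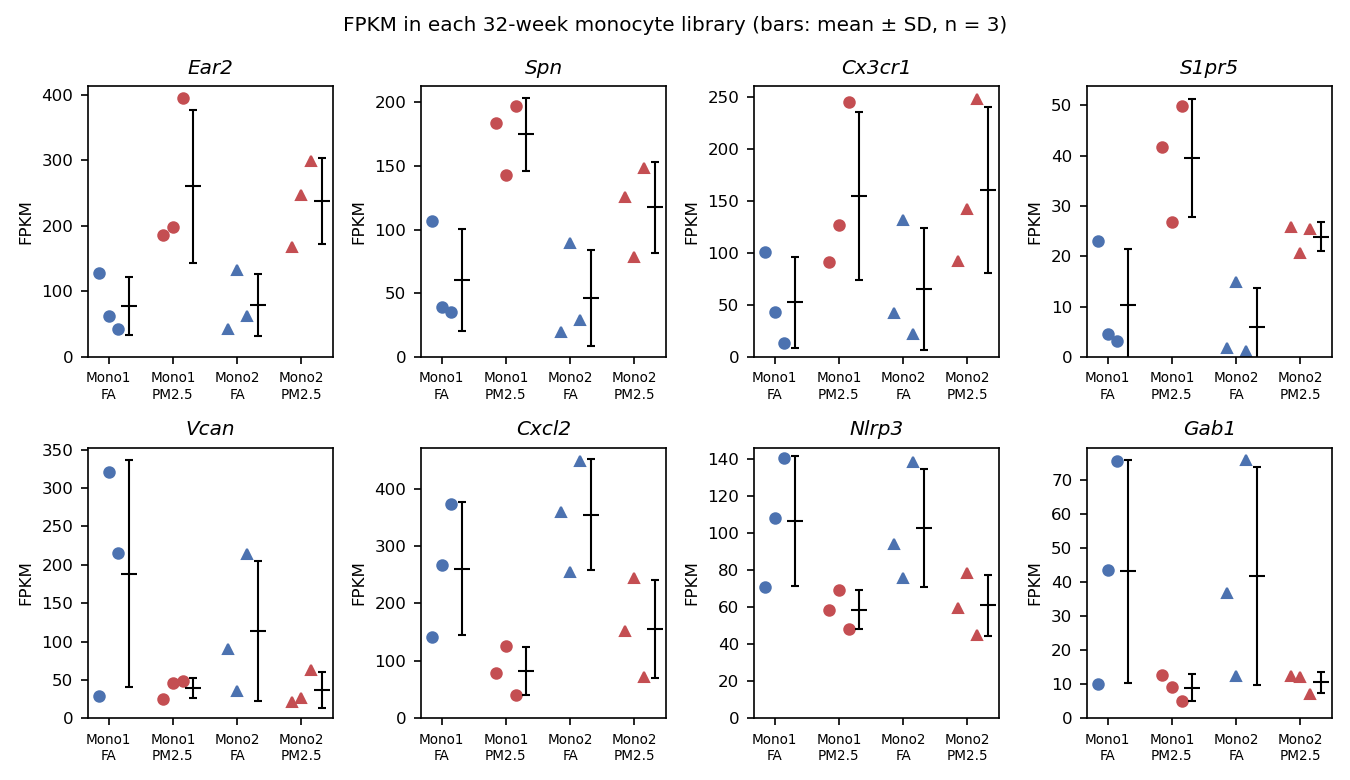
FPKM of 8 genes in the 12 libraries, by origin and exposure. Points are libraries and bars the mean ± SD of 3, cut at 0. The PM2.5 libraries of Ear2 (168 to 395) lie above all FA libraries (42.9 to 133), while for Vcan, Nlrp3 and Gab1 the FA libraries spread over the widest range.

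The genes named for lower values with PM2.5 are given by what they do, first chemokine, inflammasome and receptor genes. Cxcl2, a chemokine that draws neutrophils, was between 141 and 448 FPKM with FA (median 313) and between 41.1 and 244 with PM2.5 (median 102), a log2 fold change of -1.50 (SE 0.365, limma adjusted p = 0.422, exact permutation p = 0.005). Nlrp3, the sensor of the inflammasome, had a median of 101 FPKM with FA and 59.0 with PM2.5 (log2 fold change -0.77). Il1r2, the decoy receptor of interleukin 1, had a median of 8.17 FPKM with FA and 2.42 with PM2.5, and C5ar2, a receptor of complement C5a, 16.7 and 9.99. In all 4 genes some libraries of the exposures overlapped.

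The rest of the lower group had other roles. Pde7b, a phosphodiesterase of cyclic AMP, was between 7.88 and 20.9 FPKM with FA and between 5.5 and 7.14 with PM2.5, with no overlap (log2 fold change -0.98, exact permutation p = 0.005). Gab1, a docking protein of growth factor receptors, had the most uneven FA values of the group, from 10.2 to 76.1 FPKM, against 5.04 to 12.9 with PM2.5 (log2 fold change -1.71). Odc1, the first enzyme of polyamine synthesis, stood at a median of 17.6 with FA and 8.91 with PM2.5, and the adhesion molecule Amica1 at 12.6 and 7.47. Purg, a nucleic acid binding protein, was at 13.1 and 7.36. Ugt1a6b (7.46 and 3.50) shares exons with the other genes of the Ugt1a locus, so its own level is uncertain. The low and high FA libraries were the same for Gab1 as for the non-classical markers with signs exchanged: Mono1 FA replicate 0 had 10.2 FPKM and Mono2 FA replicate 1 had 12.6, and the other 4 had between 36.9 and 76.1.

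**Figure D4:**
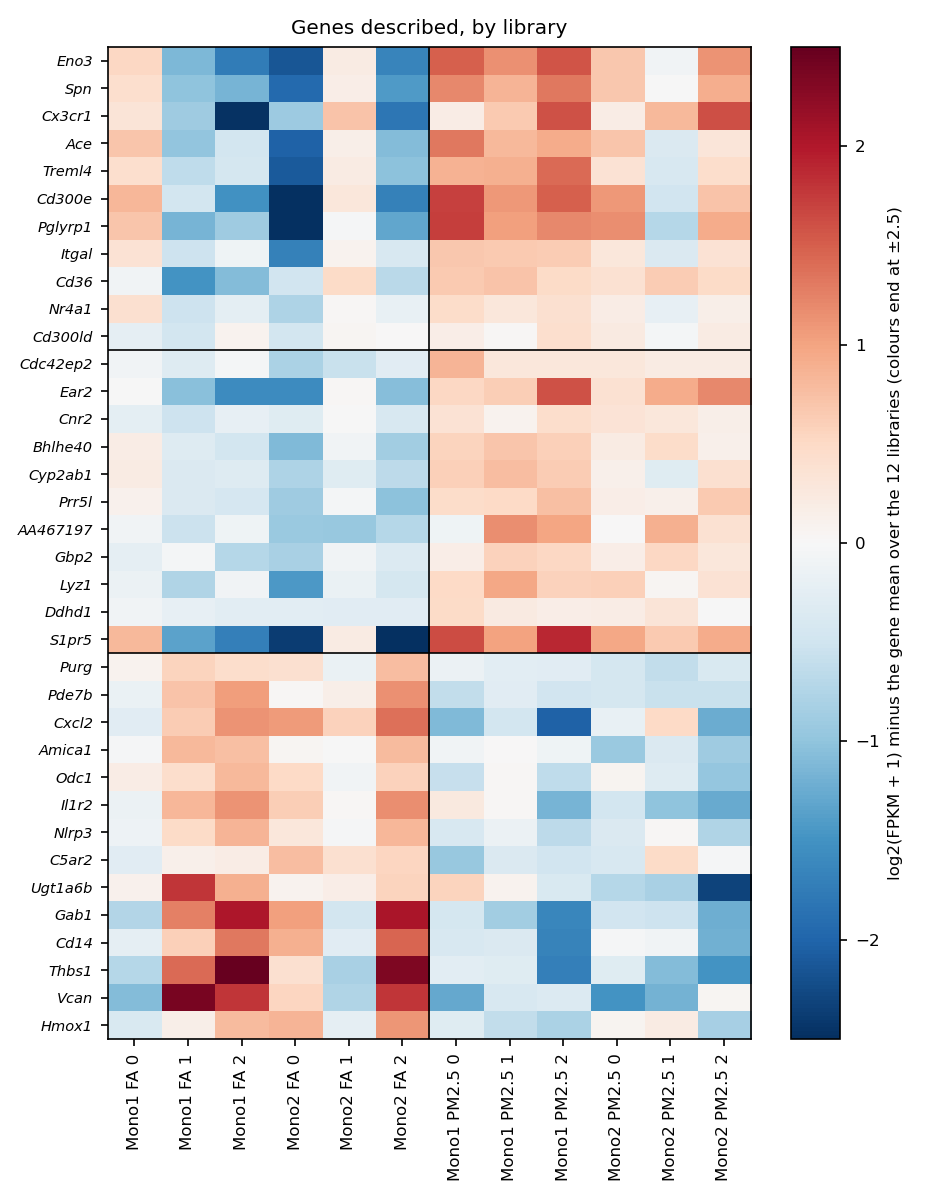
Genes described, as log2(FPKM + 1) minus the gene's mean over the 12 libraries, with FA libraries on the left and PM2.5 libraries on the right. Rows are 11 non-classical markers, 11 other genes higher with PM2.5 and 14 genes lower with PM2.5, and among FA libraries Mono1 replicate 0 and Mono2 replicate 1 look most like the PM2.5 libraries.

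Lists of genes for known responses were described by counts and medians. For the counts of all lists, an unadjusted p under 0.05 was found for 5.83% of all genes in the higher direction and 2.78% in the lower. Inflammatory cytokines stood lowest. Of 15 tested 4 were above 0 in log2 fold change, 3 had an unadjusted p under 0.05 in the lower direction and 1 in the higher, and the median was -0.43. Without Mono2 PM2.5 replicate 1 it was -0.74, without Mono1 PM2.5 replicate 1 it was -0.66 and without the 2 libraries rich in macrophage transcripts -0.67, and the count in the lower direction was 1 to 4 over the alternatives. Il10, an anti-inflammatory cytokine, had a median of 3.48 FPKM with FA and 1.02 with PM2.5, Osm (oncostatin M) 92.6 and 53.9, and Tnfsf14 (LIGHT) 14.8 and 5.82. For Il1b 2 libraries stood apart: Mono1 and Mono2 FA replicate 2 had 2725 and 2347 FPKM, and the other 10 libraries had between 439 and 749. Tnf had a median of 41.2 FPKM with FA and 39.4 with PM2.5 (log2 fold change 0.17, SE 0.236), with a sign that turned without Mono1 FA replicate 1.

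Chemokines went both ways. The 20 tested had 9 above 0 and a median of -0.01. In each direction 2 had an unadjusted p under 0.05 (5.83% of all genes higher and 2.78% lower). Beside Cxcl2, the lower one was Cxcl1 (log2 fold change -1.14), also a ligand of the neutrophil receptor Cxcr2. Ccl22, a ligand of Ccr4 made by dendritic cells and macrophages, was at a median of 7.67 FPKM with FA and 49.0 with PM2.5 (log2 fold change 1.72, SE 0.501). Of 8 chemokine receptors 4 were above 0 and 4 below, with a median of 0.09 that changed sign in 4 alternatives. The lowest was Ccr1 (log2 fold change -1.25). Ccr7, which guides cells to lymph nodes, was higher beside Cx3cr1, at 7.81 and 14.7 (log2 fold change 1.17). Ccr7 also marks migratory dendritic cells, and of 6 dendritic cell markers tested 4 were above 0, with a median of 0.57. The summed level of all 10 was 52.6 to 109 FPKM with FA and 68.7 to 177 with PM2.5. Xcr1 and Clec9a, which define conventional dendritic cells of type 1, were below the filter. The part of such cells in these values was not tested.

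The sensors of microbial products had 9 of 20 above 0, with a median of -0.13 that ranged from -0.26 without Mono1 FA replicate 0 to -0.026 without Mono1 FA replicate 2. Cd14, the co-receptor for lipopolysaccharide, was between 767 and 2560 FPKM with FA (median 1556) and between 291 and 906 with PM2.5 (median 718), with overlap and a log2 fold change of -1.25 (SE 0.390). Tlr5, the receptor for flagellin, had medians of 27.6 and 8.64. Cd14 and Tlr5 were the 2 of this list with an unadjusted p under 0.05 in the lower direction (2.78% of all genes). In the higher direction 1 had it (5.83% of all genes), the receptor Tlr9, at medians of 44.3 and 60.3 FPKM (log2 fold change 0.36). Among coagulation genes 4 of 12 were above 0 (median -0.28, and -0.13 without Mono1 FA replicate 1), and Thbs1, the matrix protein thrombospondin 1, had medians of 1091 and 348 FPKM (log2 fold change -1.72, SE 0.619). The list of glycolysis and hypoxia genes had 11 of 23 above 0 and a median of -0.01. In the lower direction 2 had an unadjusted p under 0.05. These were the hypoxia factor Hif1a, at medians of 88.7 and 37.5, and its target Vegfa, at 40.0 and 27.1. In the higher direction 1 had it, Pfkfb4, at medians of 10.3 and 14.0 (log2 fold change 0.48). Hif1a ran from 27.0 to 156 FPKM with FA and from 32.7 to 40.3 with PM2.5, so its exposures overlapped.

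Few targets of the routes that sense particles were above 0. Of the aryl hydrocarbon receptor battery 5 of 11 were tested, 1 was above 0 and none had an unadjusted p under 0.05 in either direction. The median of these 5 was -0.22, and -0.34 without Mono1 FA replicate 0. Cyp1b1 and Nqo1, classical targets of the receptor, were at most 0.114 and 0.570 FPKM and below the filter. Tiparp, its feedback inhibitor, was at a median of 141 FPKM with FA and 89.7 with PM2.5 (log2 fold change -0.47, SE 0.300). Among NRF2 targets 5 of the 19 entries tested (Fth1 has 2) were above 0, or 3 after either scaling. In the lower direction 4 entries had an unadjusted p under 0.05 (2.78% of all genes), and none had it in the higher. The median of the 19 entries was -0.08. This median ranged from -0.16 without Mono1 FA replicate 0 to -0.021 without Mono1 FA replicate 2. Hmox1, haem oxygenase 1, was between 40.6 and 115 FPKM with FA and between 29.3 and 61.3 with PM2.5 (log2 fold change -0.76, SE 0.280). Srxn1 (sulfiredoxin) and Txnrd1 (thioredoxin reductase) had log2 fold changes of -1.02 and -0.81. The metal response list had 2 of 6 above 0.

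Glucocorticoid targets had 6 of 16 above 0 and a median of -0.14. This median was -0.016 without Mono2 PM2.5 replicate 2 and -0.24 without Mono1 PM2.5 replicate 0. An unadjusted p under 0.05 was found for 4 in the lower direction (2.78% of all genes) and 1 in the higher (5.83%). Fkbp5, a chaperone partner of the glucocorticoid receptor, was between 49.4 and 71.5 FPKM with FA. With PM2.5 it was between 35 and 54.6 in 4 libraries and at 7.37 and 9.21 in Mono1 and Mono2 replicate 2. Its log2 fold change was -1.25 (SE 0.464), and -0.90 without Mono1 PM2.5 replicate 2. In the TGF-beta pathway the coreceptor Tgfbr3 (median 2.11 FPKM with FA and 10.2 with PM2.5) and the ligand Tgfb3 (5.23 and 2.05) stood in opposite directions, and 8 of 13 members were above 0.

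Genes of antigen presentation by MHC class I were above 0 in all 15 cases tested, also under quantile normalization and upper quartile scaling. Their median log2 fold change was 0.33, and 6 had an unadjusted p under 0.05 in the higher direction (5.83% of all genes). This count was 3 to 8 over the alternatives. Psmb9, a subunit of the immunoproteasome, was between 8.6 and 15.5 FPKM with FA and between 15.6 and 22.6 with PM2.5, without overlap (log2 fold change 0.59, SE 0.154, exact permutation p = 0.005). Psmb8, of the same particle, and Tap1, a subunit of the peptide transporter, had log2 fold changes of 0.53 and 0.43. The annotated spans of Psmb9 and Tap1 overlap at chromosome 17, and use of strand in counting is not stated, so reads may be shared. Genes of MHC class II were above 0 in 10 of 10 cases with a smaller median of 0.12, which was 0.029 without Mono1 FA replicate 1, 0.23 without Mono1 FA replicate 0 and 0.064 without the 2 libraries rich in macrophage transcripts. The summed level of the 10 genes was not higher at the median. It was 4648 to 10724 FPKM with FA (median 8378) and 7422 to 10942 with PM2.5 (median 8280). H2-DMb2 and H2-Oa, which act in peptide loading, had log2 fold changes of 0.92 and 0.73. These are low genes, with medians of 3.91 FPKM with FA and 8.42 with PM2.5 for H2-DMb2, and 2.61 and 5.26 for H2-Oa. The gate had removed cells with MHC class II on the surface.

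Interferon-induced genes overlap this group in control. Of 28 tested 22 were above 0 (19 after either scaling), with a median of 0.24. An unadjusted p under 0.05 was found for 6, all in the higher direction (5.83% of all genes). The median was 0.092 without Mono2 PM2.5 replicate 2 and 0.38 without Mono2 PM2.5 replicate 1, and the count was 3 to 9 over the alternatives. Gbp2, a guanylate-binding protein that acts against intracellular microbes, was between 5.41 and 9.79 FPKM with FA and between 11.5 and 15.8 with PM2.5 (log2 fold change 0.75, SE 0.158). Ifit2, which binds viral RNA, had medians of 4.22 and 8.55, and Cmpk2, a nucleotide kinase, 3.86 and 7.17. Isg15, a standard member, had a log2 fold change of -0.08. To show what these promoters hold, the bases upstream of annotated starts were searched on both strands for GAAA, any 2 bases and GAAA (TTTC, any 2 bases and TTTC on the other strand), the core of the element bound by interferon-activated factors. It was in the 250 bases before the start of 13 of the 23 list members with a promoter in the RefSeq table of GRCm38.p6 (56.5%) and of 3.46% of all 27025 genes there. The matches of list members with an unadjusted p under 0.05 are shown with the motif in capitals, on the gene's strand.
Gbp2, chr3:142620579-142620638, plus strand: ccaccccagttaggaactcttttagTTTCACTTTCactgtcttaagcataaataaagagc
Ifit3, chr19:34583348-34583407, plus strand: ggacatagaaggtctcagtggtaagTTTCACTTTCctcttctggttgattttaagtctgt
The letters in capitals are the same in both promoters, 59 and 156 bases before the start. Ifit3 had a log2 fold change of 0.83. A match describes the letters and is no measure of binding.

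Cholesterol and fatty acid synthesis stood highest of the response lists. All 19 genes tested were above 0 with FPKM as deposited, 17 after quantile normalization and 18 after upper quartile scaling. The median log2 fold change was 0.38 (0.49 within Mono1 and 0.25 within Mono2). An unadjusted p under 0.05 was found for 7 in the higher direction (5.83% of all genes). Of these 1 was left with same-numbered libraries as 1 mouse and 3 without the 2 libraries rich in macrophage transcripts. Sqle, which makes squalene epoxide, was between 1.13 and 4.67 FPKM with FA and between 3.23 and 11.1 with PM2.5 (log2 fold change 1.13, SE 0.372). The exposures overlapped in this gene.

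Adhesion and growth genes differed less. Among leukocyte integrins and selectins 10 of 16 entries were above 0. An unadjusted p under 0.05 was found for 5 in the higher direction (5.83% of all genes). Itgb2, the common chain of the leukocyte integrins, was at a median of 149 FPKM with FA and 188 with PM2.5 (log2 fold change 0.41), and Selplg, the ligand of P-selectin, at 108 and 143. Proliferation genes had 12 of 16 above 0, with a median of 0.19 (0.072 after quantile normalization and 0.11 without Mono1 FA replicate 1). Cytosolic ribosomal proteins had 8 of 36 above 0 (3 after upper quartile scaling), with a median of -0.06 (0.0042 without Mono2 FA replicate 2 and -0.13 without Mono2 FA replicate 0).

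**Figure D5:**
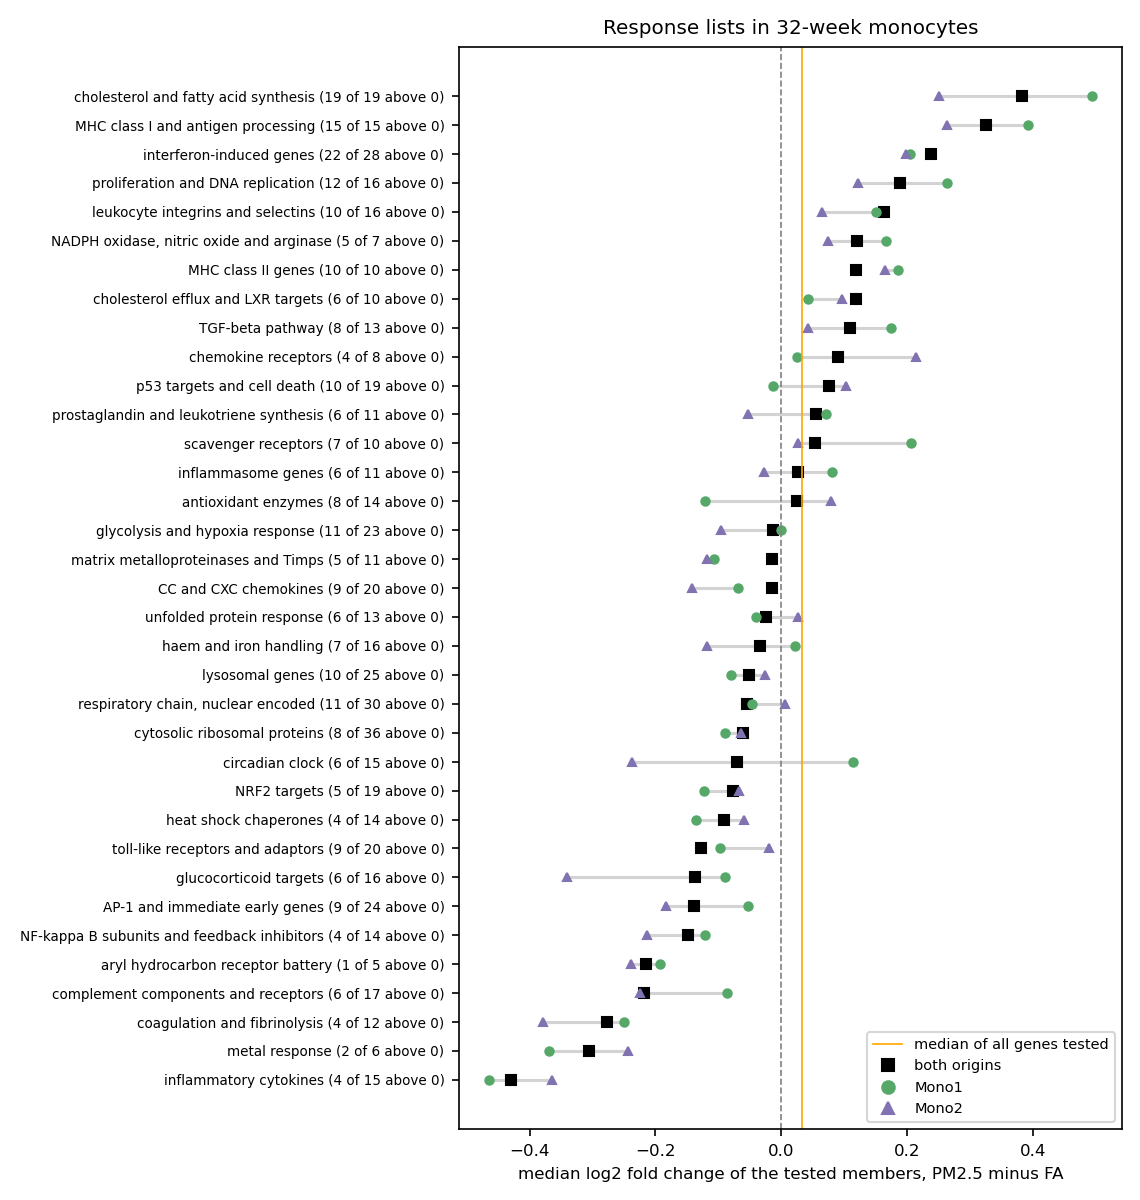
Median log2 fold change, PM2.5 minus FA, of the tested members of each response list. Squares are the fit over 12 libraries, circles Mono1 and triangles Mono2, and the orange line is the median of all genes tested (0.03). Cholesterol and fatty acid synthesis (0.38) and MHC class I (0.33) are at the top and inflammatory cytokines (-0.43) at the bottom.

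Within each origin the comparison had 3 libraries against 3. In Mono1 limma called 2 genes (0.0156%), and 506 had an unadjusted p under 0.05, higher for 2.92% of all genes and lower for 1.02%. In Mono2 it called 1 (0.0078%), and 460 had it, higher for 2.27% and lower for 1.32%. These counts rested on single FA libraries. Without Mono1 FA replicate 0 the Mono1 count was 1232, and without Mono2 FA replicate 1 the Mono2 count was 861. Of the genes with an unadjusted p under 0.05, 74.1% were higher in Mono1 with FPKM as deposited, 45.9% after quantile normalization and 52.0% after upper quartile scaling. In Mono2 the shares were 63.3%, 58.2% and 52.3%. PM2.5 was above FA without overlap within both origins for 88 genes (0.686%) and below it for 17 (0.133%). For 17 more (0.133%) the origins went in opposite directions without overlap. The test of the difference between the origins called 3 genes (0.0234%), with 236 at an unadjusted p under 0.05, of which 96 (0.749%) were more positive in Mono2 and 140 (1.09%) in Mono1. All calls in these tests were small RNAs. Gm26287, a small nucleolar RNA, was listed at 1473, 1480 and 2039 FPKM in the Mono1 PM2.5 libraries and at 0 in the other 9. Gm24251 was at 217, 433 and 294 FPKM in Mono1 FA and at 0 in the other 9, and Gm25492 was at 0 in all 3 Mono2 PM2.5 libraries and between 112 and 404 FPKM elsewhere. An exact 0 in these files can be a failed estimate.

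The effect at 32 weeks was set against that at 4 weeks (Mono2 against the monocytes of 4 weeks, 18 libraries in the fit). The labels give no origin for the 4-week monocytes, but the paper states that cells sequenced at that time were CD45.2 only. Limma called 1 of 12856 genes (0.00778%), the small RNA Gm25127, and 483 had an unadjusted p under 0.05, above 0 for 2.24% of all genes and below it for 1.52%. Without 1 of the 4-week PM2.5 libraries (replicate 2) there were 847, and without Mono2 FA replicate 1 there were 800. For the 12 non-classical markers the median of PM2.5 minus FA was -0.42 at 4 weeks and 1.15 at 32 weeks in Mono2, and the difference was above 0 for 11 of 12. Of these 4 had an unadjusted p under 0.05, and none passed adjustment (smallest adjusted p of limma 1.0). For the 11 classical markers the medians were 0.48 and -0.20.

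Against alveolar macrophages sorted from the lungs at the same time, limma called 2 of 13174 genes (0.0152%). The same monocyte libraries enter both this and the comparison over time. At an unadjusted p under 0.05 there were 668 genes (1068 without Mono1 FA replicate 0), above 0 for 3.55% of all genes and below it for 1.52%. The called genes, Cdk8 and Gm26917, were listed at 0 in all 3 FA libraries of the macrophage group MF1, and in monocytes Cdk8 was between 8.66 and 17.3 FPKM. In the non-classical markers the median of PM2.5 minus FA was -0.10 in MF1 and 0.03 in MF2, where it was 1.39 in Mono1 and 1.15 in Mono2. The difference, monocyte minus macrophage effect, was above 0 for 12 of 12, and 9 of these had an unadjusted p under 0.05, with a smallest adjusted p of 0.780. Whether the levels of these markers in macrophages would allow a like change was not tested. For genes of MHC class I presentation this difference was above 0 in 15 of 15 cases, 5 of them with an unadjusted p under 0.05 and none past adjustment (smallest adjusted p of limma 0.893).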

How the data were processed

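RNA-seq of sorted lung monocytes was analysed from the deposited table of FPKM, which the authors made with Cufflinks from reads trimmed with TrimGalore and aligned with STAR to mm10. Strand use in counting is not given in the sources used here, and FPKM carry no depth, so no counting error can be given. Groups followed the labels. Of 27562 gene IDs 27413 matched GENCODE M21 (GRCm38), used for positions and types, and 24 symbols turned into dates by a spreadsheet were restored from it. Genes that averaged 1 FPKM or more in the 12 libraries were tested with limma 3.58.1 (R 4.3.3) on log2(FPKM + 1), with a variance trend and Benjamini-Hochberg adjustment at 0.05. Log2 fold changes on this scale understate those of low genes. The procedure was tested on simulated data. It was also run for each origin and for differences between origins, times and cell types.

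The 12 libraries, the 51 gene lists and the tests were chosen with earlier results of these data known. Named genes were those past the adjusted threshold (none), up to 10 per direction with the smallest p among genes that averaged 5 FPKM or more with no library at 0 and the same sign in both origins (gene models and pseudogenes left out), up to 3 per described list, and 11 landmark genes. Monocyte markers were described as lists. Alternatives were a pseudocount of 0.1, other filters, 2 scalings, leaving out each library, a replicate block, array weights, no origin covariate, a fit of 18 libraries and 2 treatments of same-numbered libraries as 1 mouse. Leaving out 2 libraries together was chosen after seeing the data. Values of 2 members of the cholesterol synthesis list are not reported here.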

Additional observations from a re-analysis of the deposited data

Results flagged for a closer look

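Genes whose PM2.5 effect differed between groups by the test of the difference itself were few, and most had values of 0 throughout one group. Between Mono2 and Mono1 the difference in log2 fold change was 8.24 for Gm24251, -6.73 for Gm25492 and -10.68 for Gm26287. Between 32 and 4 weeks it was 9.13 for Gm25127, which was at 434 to 859 FPKM in the 4-week FA libraries and at 0 in the 4-week PM2.5 libraries and in all 12 monocyte libraries of 32 weeks. Between monocytes and macrophages it was -1.89 for Cdk8, a kinase of the Mediator complex, and -7.44 for Gm26917, which is annotated as a long non-coding RNA. Gm26917 was at 22353 to 50636 FPKM in the 12 monocyte libraries of 32 weeks and at 0 in the 3 MF1 FA libraries. The groups have 3 libraries each, so outlying libraries were not tested.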

How the results depend on the processing

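No gene was called in the pooled comparison under any alternative, other than 7 small RNAs with the means of same-numbered libraries and between 0 and 1 when a library was left out (1 small RNA without Mono2 FA replicate 1). With the replicate block, the fit with replicate number within origin, the pooled comparison called 0 genes and 1255 had an unadjusted p under 0.05, and it called 2 genes instead of 3 between origins. The numbers were not taken to pair exposures: over the 7456 genes of the same-mouse check, same-numbered FA and PM2.5 libraries of one origin correlated at -0.027 to 0.24, with 3 of the 6 pairs above 0.1. Without a filter the calls were 4 within Mono1, 5 for the difference between origins and 6 for that between cell types. Within Mono2 a pseudocount of 0.1 gave 2. Leaving out a library gave 2 to 7 calls within Mono1, 2 to 5 within Mono2, 3 to 9 between origins, 1 to 4 between times and 2 to 6 between cell types. The cause was not tested. Genes at an unadjusted p under 0.05 moved by more than 1.5 times without a filter within Mono1 (506 to 828) and Mono2 (460 to 966), between origins (236 to 480), times (483 to 942) and cell types (668 to 1079), with array weights within Mono1 (1631), between origins (468), times (870) and cell types (1023), and with the pooled libraries as 1 mouse (510 by correlation). Of 72 named genes 69 kept their sign in the alternatives run. The exceptions were Ly6c2, Ccr2 and Tnf when a library was left out: Ly6c2 lay between -0.19 and 0.12, Ccr2 between -0.034 and 0.61, and Tnf between -0.021 and 0.31. No named gene was called under an alternative of the pooled comparison, and the difference between cell types called Prr5l and S1pr5 without Mono2 FA replicate 1. Of 44 lists 27 kept the sign of their median, among them both monocyte lists, MHC class I and II, cholesterol synthesis, interferon-induced genes, cytokines and NRF2 targets.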

Other observations

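Several gene groups not described above had medians below that of all genes (0.03). Complement components and receptors had 6 of 17 members above 0 in log2 fold change (4 after either scaling) and a median of -0.22 (-0.093 without Mono2 PM2.5 replicate 2). NF-kappa B subunits and their feedback inhibitors had 4 of 14 above 0 (3 after either scaling), AP-1 and immediate early genes 9 of 24, and heat shock chaperones 4 of 14 (3 after either scaling), with medians of -0.15, -0.14 and -0.09. The first was -0.072 without Mono2 PM2.5 replicate 2, the second -0.015 without Mono1 FA replicate 0, and the third -0.0057 without Mono2 FA replicate 1 and -0.30 without the 2 libraries rich in macrophage transcripts. Lysosomal genes had 10 of 25 above 0 and circadian clock genes 6 of 15, and these medians changed sign in some alternatives. Among scavenger receptors 7 of 10 were above 0 (6 after quantile normalization), with a median of 0.05 that was -0.12 without Mono2 PM2.5 replicate 1. Ccr1, a receptor for several CC chemokines, was between 12.6 and 171 FPKM with FA and between 19.1 and 28.3 with PM2.5, so that its spread was wide in FA alone. Its log2 fold change was -1.25 (SE 0.602, limma adjusted p = 0.594). Some lists of other cells had higher medians. Of the 8 B cell markers 2 were tested, both above 0 with a median of 0.57, and the sum of the list was 17.2 to 62.0 FPKM with FA and 35.1 to 74.6 with PM2.5. The 4 red cell markers tested were above 0 (3 after quantile normalization) with a median of 0.72, which was 0.31 without Mono1 PM2.5 replicate 2 and 0.34 without Mono2 PM2.5 replicate 2. The 7 red cell markers with values summed to 0 to 46.4 FPKM with FA and 0.606 to 85.8 with PM2.5.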
